A study of Xenopus laevis with 20 samples.

Results

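The genes described here are ligands of the bone morphogenetic protein (BMP) pathway and proteins that restrain it, measured in frog ectoderm after activation of the transcription factors Pax3 and Zic1. They were taken as every array probe set whose annotated symbol, without the ending .L or .S, is bmp2, bmp4, bmp7, chrd.1, nog, szl, bambi, fst or grem1. The rule found 13 of 32539 probe sets, which stand for 11 of the 11303 gene symbols annotated on the array. A further 4 probe sets annotated to both copies of one of these genes were left out, and no probe set carried the plain symbol bmp7. The frog Xenopus laevis keeps paired copies of many genes from an ancient genome doubling, named .L and .S after the longer and shorter chromosome of each pair. The label "secreted" holds for all of these proteins except bambi, a membrane protein that resembles a BMP receptor without its signalling part.

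The study used animal caps, the prospective ectoderm of the blastula, which forms epidermis when left alone. Embryos were injected at the stage of 2 cells with one of 4 message sets, and caps were cut at stage 9 and cultured for 8 h with dexamethasone. In the Pax3GR and Zic1GR groups the message encoded the factor joined to the glucocorticoid receptor (GR), a hormone-inducible version that dexamethasone switches on. The Combination group received both messages, and the control group received GR message alone. All 4 groups, the control included, therefore had a GR message and the hormone. Each group had 5 explants, each on an array of its own. The labels call them biological replicates and do not say whether they came from separate clutches, so p-values measure the spread between these explants.

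BMP ligands instruct ectoderm to become epidermis, and the organiser on the dorsal side of the embryo releases proteins that bind these ligands and so permit neural fate. Chordin and noggin are such binding proteins. Sizzled is a ventral feedback antagonist in Xenopus. Its gene is switched on by BMP signalling, and its product blocks the tolloid proteases that cut chordin, while bambi is switched on by the same signal and dampens it at the receptor. Intermediate BMP signalling is a known feature of the neural plate border, where Pax3 and Zic1 act and where neural crest and placodes arise.

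Values are log2 intensities as deposited, where a difference of 1 is a doubling. A log2 of 4 served as the level below which a probe set was not read as measured. A probe set was tested if it reached that level on at least 5 of the 20 arrays, which 20519 probe sets did, 9 of the 13 BMP probe sets (8 genes) among them. Group means were compared with limma, and p was adjusted over all 20519 by the Benjamini-Hochberg method with a threshold of 0.05. "Rose" and "fell" refer only to what passed it. If no array of a group reached log2 4, values under 4 were set to 4 and the fold is given as "at least". Array medians ran from 6.1 to 6.3, and each array had 18949 to 19239 probe sets at or above log2 4. No arrays held identical values. The array least like its own group was a Pax3GR array (replicate 1), with a mean correlation of 0.881 to the other 4.

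Each injection changed a large share of all tested probe sets, which sets the background for every count. In Pax3GR caps 3 of the 9 tested BMP probe sets rose and 6 fell against GR, where 50.3% of all tested probe sets passed, 27.3% higher and 23% lower. In Zic1GR caps 2 rose, 3 fell and 4 did not pass, against 51.4% of all probe sets, 28.6% higher and 22.8% lower. In Combination caps 3 rose and 6 fell, against 44.8%, 24.6% higher and 20.3% lower. The groups did not overlap for 8, 5 and 9 of the 9 probe sets in these 3 comparisons, and for 38.8%, 40.7% and 36.4% of all probe sets. The 3 comparisons share the GR arrays. The explants are bulk samples, in which fewer cells making a transcript and less transcript per cell cannot be told apart.

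**Figure D1:**
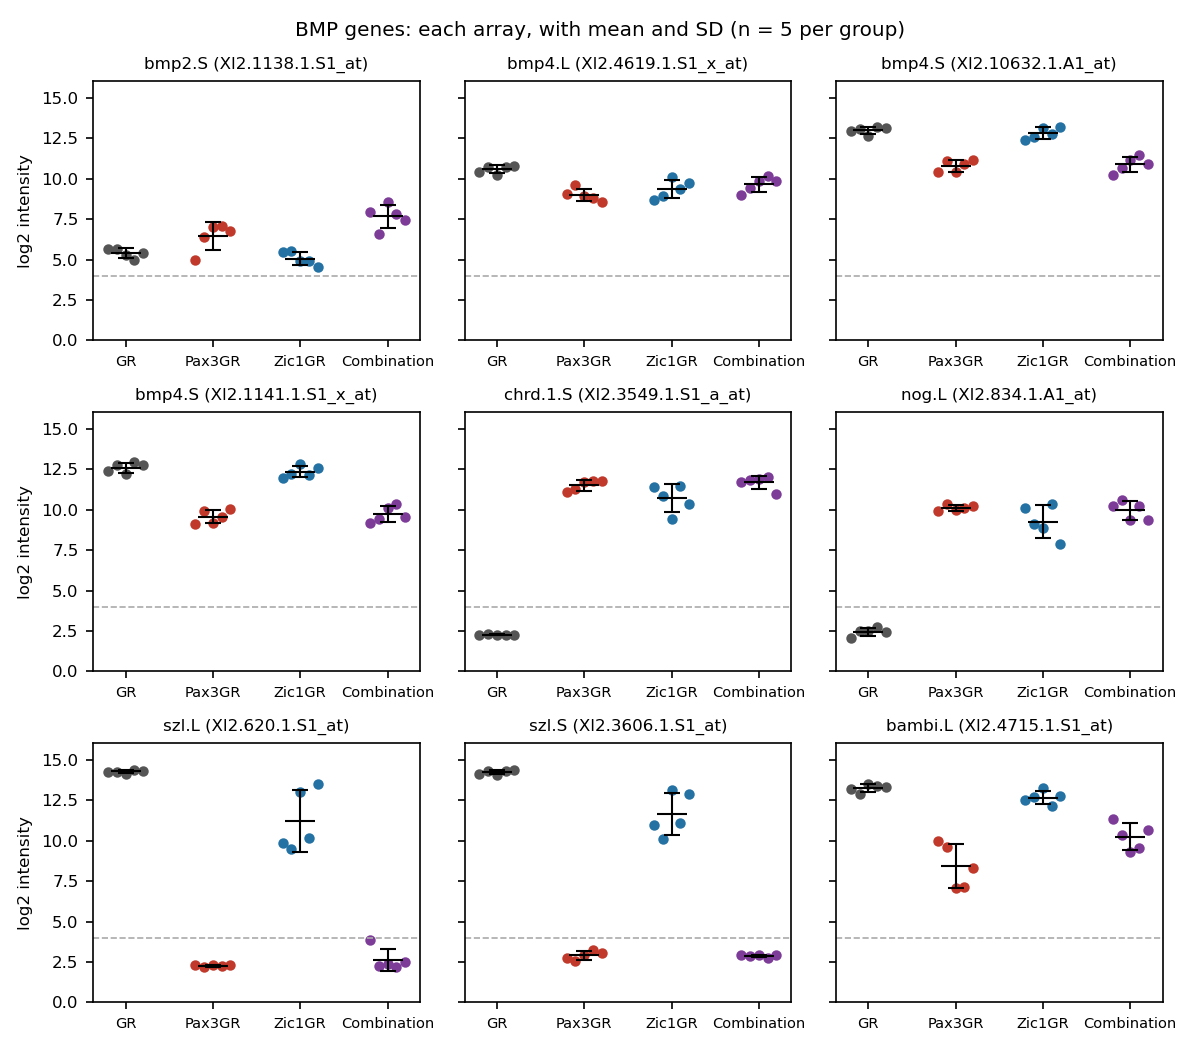
Log2 intensity of the 9 tested BMP probe sets on every array, 1 panel per probe set, with 5 points per injection group, a long bar for the mean and whiskers for 1 SD. The dashed line marks log2 4; chrd.1.S and nog.L lie below it only in GR, and szl.L and szl.S only in Pax3GR and Combination.

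The ligand gene bmp4, a main source of epidermis-inducing signal in this tissue, was strongly expressed in control caps and lower wherever Pax3GR had been injected. On the 5 GR arrays bmp4.S (probe set Xl2.10632.1.A1_at) read 12.93, 13.08, 12.66, 13.21 and 13.13, and on the Pax3GR arrays it read 10.40, 11.08, 10.41, 10.87 and 11.17. The Zic1GR arrays read 12.37, 12.56, 13.13, 12.75 and 13.21, and the Combination arrays read 10.23, 10.65, 11.17, 11.43 and 10.88. The GR and Zic1GR arrays overlapped at the top, and every Pax3GR and Combination array lay below them all. bmp4.S fell 4.64-fold in Pax3GR caps (log2 difference -2.21 ± 0.23 SE, adjusted p = 3.92e-07) and 4.37-fold in Combination caps (-2.13 ± 0.23, adjusted p = 8.38e-07). The Zic1GR difference was -0.20, with a 95% interval from -0.67 to 0.28 (adjusted p = 0.485). In the order of levels, neither GR and Zic1GR nor Combination and Pax3GR differed beyond their spread.

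The other bmp4.S probe set, Xl2.1141.1.S1_x_at, gave the same order. It read 12.39, 12.77, 12.17, 12.92 and 12.73 on the GR arrays, and 9.13, 9.94, 9.18, 9.57 and 10.01 on the Pax3GR arrays. Zic1GR arrays read 11.96, 12.21, 12.80, 12.14 and 12.54, and Combination arrays 9.20, 9.42, 10.09, 10.36 and 9.57. Again the control and Zic1GR arrays overlapped and the others lay below both. The falls were 8.17-fold with Pax3GR (log2 -3.03 ± 0.24 SE, adjusted p = 1.68e-08) and 7.32-fold with the Combination (adjusted p = 4.27e-08), and Zic1GR differed by -0.27 (interval -0.78 to 0.24, adjusted p = 0.373). With arrays weighted by quality, both bmp4.S probe sets passed in Zic1GR caps too, at -0.41 (adjusted p = 0.0456) and -0.49 (adjusted p = 0.0268).

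The .L copy was lower with each factor. The bmp4.L probe set, Xl2.4619.1.S1_x_at, read 10.39, 10.69, 10.22, 10.74 and 10.80 in GR caps, and 9.04, 9.60, 8.91, 8.80 and 8.57 in Pax3GR caps. It read 8.68, 8.91, 10.12, 9.37 and 9.71 in Zic1GR caps, and 8.97, 9.41, 9.83, 10.17 and 9.84 in Combination caps. All arrays of the 3 groups lay below every GR array, and the 3 groups overlapped each other. bmp4.L fell by 1.58 with Pax3GR (adjusted p = 0.00011), by 1.21 with Zic1GR (adjusted p = 0.00134) and by 0.92 with both (adjusted p = 0.0101), all on the log2 scale. The last of these was under the 2-fold size used as an alternative threshold.

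Since the probe sets of the copies moved unequally, the difference bmp4.S minus bmp4.L was taken within each array, a comparison chosen after the values were seen. The size of that difference in GR caps reflects different probes and has no reading of its own, so only its change between groups is described. For Xl2.10632.1.A1_at it was 2.43 ± 0.082 (SD, n = 5) in GR caps and widened to 3.45 ± 0.273 in Zic1GR caps, a change of 1.01. The widening had an exact two-sided permutation p of 0.00794, the smallest that 5 arrays against 5 can give, and 0.00953 after adjustment over 6 comparisons. The Combination narrowed it by 1.2, to 1.23 ± 0.113, with the same p. Pax3GR narrowed it by 0.63, to 1.80 ± 0.525 (exact permutation p = 0.0476, adjusted p = 0.0476), with arrays on both sides of the GR values.

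The other bmp4.S probe set gave changes of the same signs in its difference from bmp4.L. The difference went from 2.03 ± 0.106 in GR caps to 2.97 ± 0.294 with Zic1GR, 0.581 ± 0.541 with Pax3GR and 0.0799 ± 0.223 with both, each with an exact permutation p of 0.00794 and an adjusted p of 0.00953 (n = 5 per group). The probe sets of bmp4.S thus fell further than that of bmp4.L under Pax3GR and the Combination, and under Zic1GR, where the bmp4.S probe sets did not pass, bmp4.L lay lower relative to them. Probe sets can also differ in how strongly they respond. The bmp4.S probe sets differed from GR by -2.21 and -3.03 with Pax3GR and by -2.13 and -2.87 with the Combination. With Zic1GR they differed from GR by -0.20 and -0.27. Whether the copies or the probes differ was not tested. Names ending in _x_at mark probe sets whose probes may also bind other transcripts, the other copy of the gene included; that binding was not tested.

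**Figure D2:**
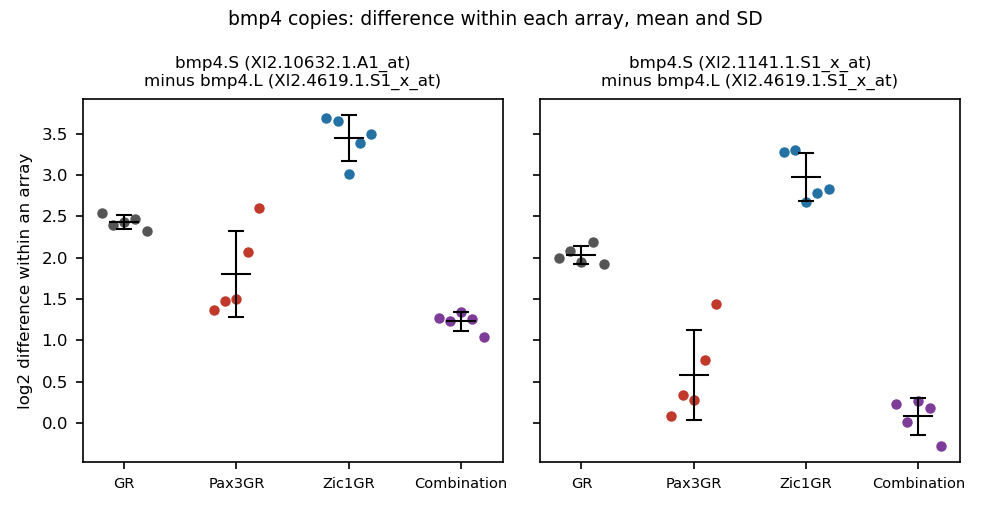
Log2 intensity of bmp4.S minus bmp4.L within each array, for each of the bmp4.S probe sets, with 5 points per injection group, a long bar for the mean and whiskers for 1 SD. Zic1GR arrays lie above all GR arrays (means 3.45 against 2.43 on the left, 2.97 against 2.03 on the right) and Combination arrays lie below them.

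The related ligand bmp2, tested on its .S copy only, moved the other way from bmp4 with Pax3GR and with the Combination. The bmp2.S probe set, Xl2.1138.1.S1_at, was low in GR caps, at 5.66, 5.67, 5.27, 4.95 and 5.43, and similar in Zic1GR caps, at 5.44, 5.55, 4.89, 4.89 and 4.54. Pax3GR caps read 4.99, 6.37, 7.0, 7.08 and 6.79, and Combination caps read 7.91, 6.61, 8.53, 7.78 and 7.47. All Combination arrays lay above all GR arrays, while 1 Pax3GR array, replicate 1, lay among the GR values. bmp2.S rose by 2.26 ± 0.37 (SE) with the Combination (adjusted p = 0.00011) and by 1.05 ± 0.37 with Pax3GR (adjusted p = 0.0265). The Zic1GR difference was -0.34 (interval -1.12 to 0.45, adjusted p = 0.471). The Pax3GR rise lost its call without GR replicate 3 or 4 or Pax3GR replicate 3, 4 or 5 (adjusted p from 0.051 to 0.0728), and was 1.41 without Pax3GR replicate 1.

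Both chordin and noggin went from below the measured level in control caps to high intensities in all 15 caps that received a factor. The chordin probe set chrd.1.S, Xl2.3549.1.S1_a_at, read 2.27, 2.31, 2.25, 2.24 and 2.26 on the GR arrays. It read 11.06, 11.24, 11.71, 11.80 and 11.77 with Pax3GR, and 11.42, 10.87, 9.41, 11.49 and 10.33 with Zic1GR. Combination arrays read 11.69, 11.82, 11.89, 11.98 and 10.98. The 3 injected groups overlapped each other and stood well clear of GR, with the widest spread in Zic1GR. chrd.1.S rose at least 183-fold with Pax3GR (adjusted p = 1.31e-13). The bounds were at least 104-fold with Zic1GR (adjusted p = 5.52e-13) and at least 204-fold with both (adjusted p = 1.26e-13).

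The noggin probe set nog.L, Xl2.834.1.A1_at, read 2.08, 2.53, 2.48, 2.72 and 2.44 on the GR arrays. With Pax3GR it read 9.92, 10.33, 9.98, 10.11 and 10.20, with Zic1GR 10.11, 9.14, 8.87, 10.34 and 7.85, and with the Combination 10.23, 10.61, 9.33, 10.20 and 9.36. As for chordin, the injected groups overlapped each other and Zic1GR spread most. nog.L rose at least 69.0-fold in Pax3GR caps (adjusted p = 1.78e-11). It rose at least 38.3-fold in Zic1GR caps (adjusted p = 1.06e-10) and at least 61.6-fold in Combination caps (adjusted p = 2.57e-11).

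The order of the injected groups was less settled than their difference from GR. chrd.1.S was highest in Combination caps (mean 11.67 ± 0.402 SD), then Pax3GR (11.52 ± 0.341), then Zic1GR (10.70 ± 0.859). It was higher with the Combination than with Zic1GR by 0.97 (adjusted p = 0.0451), and this call was lost in 16 of the 20 fits that left out 1 array. Pax3GR against Zic1GR gave 0.81 (adjusted p = 0.0505), which passed in 9 other settings (adjusted p down to 0.0196), 4 of them fits without 1 array. The Combination against Pax3GR gave 0.16 (interval -0.49 to 0.81, adjusted p = 0.808). For nog.L none of the 3 differences passed: Pax3GR exceeded Zic1GR by 0.85 (adjusted p = 0.0804) and the Combination exceeded Zic1GR by 0.69 (interval -0.08 to 1.45, adjusted p = 0.251).

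Sizzled showed the opposite extreme: both copies were strongly expressed in control caps and were not measured on any array that received Pax3GR. The szl.L probe set, Xl2.620.1.S1_at, read 14.27, 14.25, 14.14, 14.38 and 14.32 with GR, and 2.29, 2.18, 2.31, 2.23 and 2.31 with Pax3GR. Combination arrays read 3.85, 2.27, 2.39, 2.2 and 2.52. Zic1GR arrays lay in between and far apart, at 9.85, 9.49, 13.03, 10.16 and 13.51, with no overlap with any other group. szl.L fell at least 1235-fold with Pax3GR (adjusted p = 4.12e-11) and at least 1235-fold with the Combination (adjusted p = 7.25e-11). With Zic1GR it fell 8.35-fold (log2 -3.06 ± 0.61 SE, adjusted p = 0.000564), and between -3.64 and -2.63 when any 1 array was left out.

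The szl.S probe set, Xl2.3606.1.S1_at, repeated this order. It read 14.09, 14.31, 14.08, 14.32 and 14.39 with GR and 2.77, 2.57, 2.91, 3.26 and 3.03 with Pax3GR. Zic1GR arrays read 10.94, 10.13, 13.15, 11.10 and 12.87, and Combination arrays 2.95, 2.86, 2.92, 2.77 and 2.93. Here too Zic1GR lay between the others without overlap. szl.S fell at least 1208-fold with Pax3GR (adjusted p = 3.98e-13) and with the Combination (adjusted p = 4.19e-13), and 6.06-fold with Zic1GR (log2 -2.60 ± 0.41 SE, adjusted p = 6.33e-05).

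The pseudoreceptor gene bambi followed bmp4.S more than sizzled. The bambi.L probe set, Xl2.4715.1.S1_at, read 13.17, 12.86, 13.50, 13.40 and 13.32 with GR and 9.99, 9.59, 7.09, 7.11 and 8.30 with Pax3GR. Zic1GR arrays read 12.48, 12.66, 13.24, 12.14 and 12.74, and Combination arrays 11.32, 10.35, 9.27, 9.57 and 10.68. GR and Zic1GR overlapped, Pax3GR and Combination overlapped, and these pairs were apart from each other. bambi.L fell 28.6-fold with Pax3GR (log2 -4.84 ± 0.50 SE, adjusted p = 4.83e-07) and 8.09-fold with the Combination (-3.02 ± 0.50, adjusted p = 0.000119). With Zic1GR the difference was -0.60 (interval -1.65 to 0.46, adjusted p = 0.335), which passed when only the GR and Zic1GR arrays entered the fit (adjusted p = 0.0297).

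**Figure D3:**
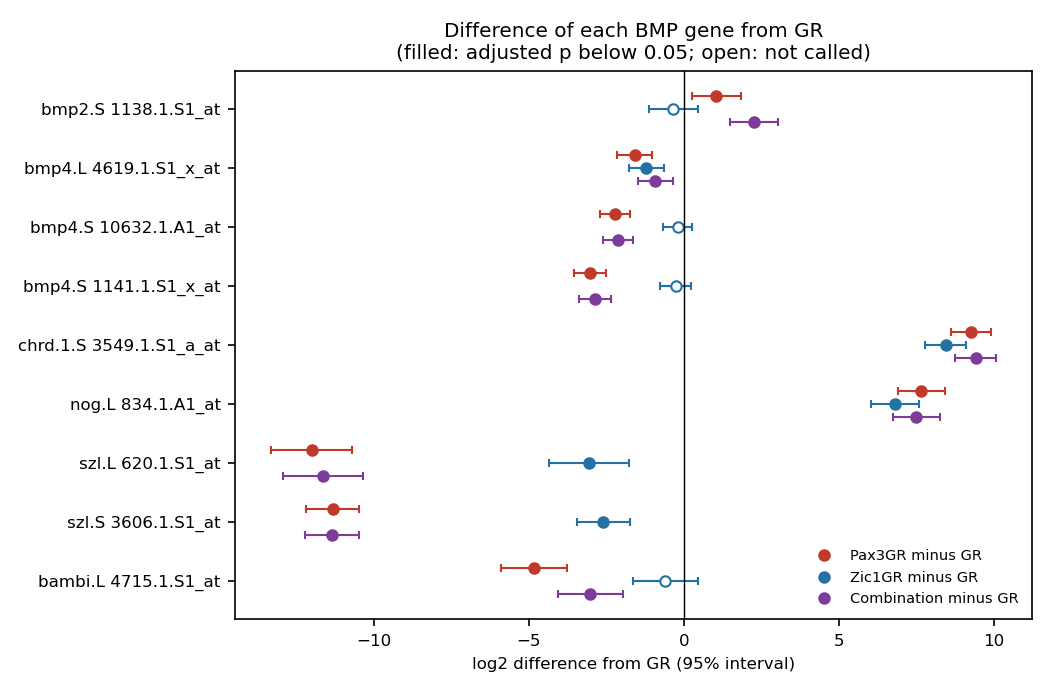
Fitted log2 difference from GR, with its 95% interval, for each tested BMP probe set in Pax3GR, Zic1GR and Combination caps. Filled points passed an adjusted p of 0.05 and open points did not; the fitted sizes for chrd.1.S, nog.L, szl.L and szl.S rest on a group below log2 4, except szl with Zic1GR, and their bounds stand in the text.

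The remaining 4 probe sets did not pass the filter and were not tested. fst.L, the gene of the activin and BMP binding protein follistatin (Xl2.1094.2.S1_a_at), read between 1.59 and 2.09 on all 20 arrays. grem1.L, the gene of the BMP antagonist gremlin (Xl2.318.1.S1_at), had means of 1.91, 1.88 and 1.99 in GR, Pax3GR and Combination caps and 3.36 in Zic1GR caps, where 1 array reached 4.04. The bmp2.L probe set Xl2.1140.2.S1_at had means of 2.83, 2.81 and 3.05 in the same 3 groups and 3.91 in Zic1GR caps, where 2 arrays passed log2 4, at 4.64 and 4.68. The other bmp2.L probe set, Xl2.1140.2.S1_x_at, reached 3.77 at most. For these genes the arrays gave too little signal for a direction.

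The Zic1GR caps differed among themselves in a way that several BMP genes shared. Replicates 3 and 5 had the highest szl.L (13.03 and 13.51), szl.S (13.15 and 12.87) and bmp4.S on Xl2.10632.1.A1_at (13.13 and 13.21). The same 2 caps had the lowest chrd.1.S (9.41 and 10.33) and nog.L (8.87 and 7.85). They were thus the nearest to control caps for both the genes that fell and the genes that rose, and still lay outside the GR range for szl.L, szl.S, chrd.1.S and nog.L.

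The transcripts of the injected factors are given beside this, chosen after the values were seen. For zic1.S, Xl2.1796.1.S2_at read 13.00, 12.37, 12.52, 13.06 and 11.84 on the Zic1GR arrays, against 6.33 to 8.35 in GR caps. Replicate 5 was the lowest of them, and replicate 3 lay in the middle. pax3.S, the other factor's gene (Xl2.49495.3.S1_x_at), was not injected in this group and read 10.95, 10.66, 9.44, 10.71 and 8.27, against 2.29 to 2.54 in GR caps. Its lowest arrays were also replicates 3 and 5. The part of either transcript in the BMP values was not tested, and with 5 caps no correlation is given. Which of these probe sets detect the injected messages is not given in the sources used here.

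**Figure D4:**
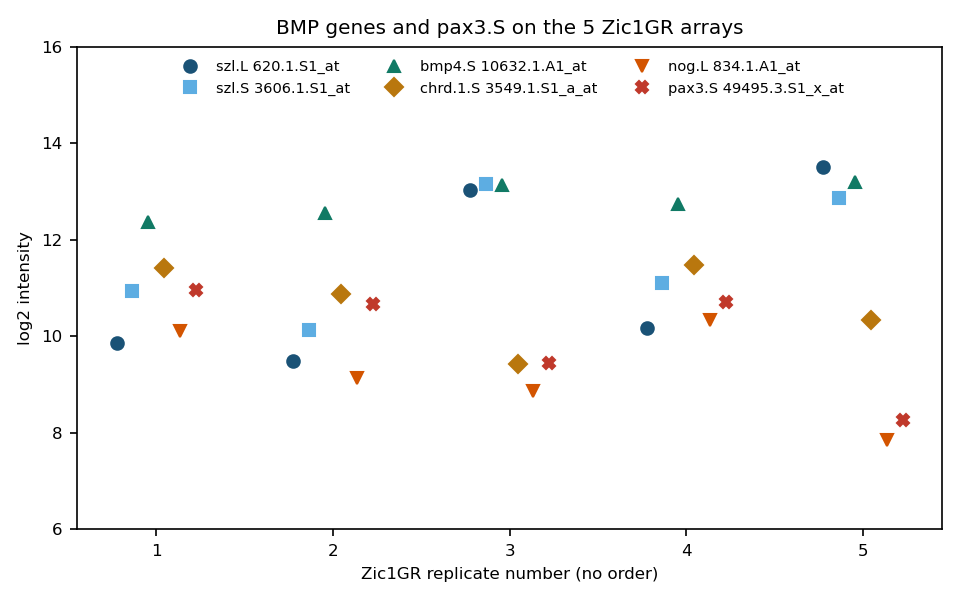
Log2 intensity of szl.L, szl.S, bmp4.S, chrd.1.S, nog.L and pax3.S on the 5 Zic1GR arrays; replicate numbers name the arrays and have no order. Replicates 3 and 5 have the highest sizzled (12.87 to 13.51) and the lowest chordin, noggin and pax3.S.

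Zic1GR added to Pax3GR moved fewer BMP probe sets past the threshold than Pax3GR added to Zic1GR. Against Pax3GR alone, 2 of the 9 rose in Combination caps and none fell, where 10.3% of all probe sets passed, 4.28% higher and 5.98% lower, and none of the 9 had groups that did not overlap (7.41% of all). The 2 were bambi.L, higher by 1.82 ± 0.50 (SE, adjusted p = 0.0273), and bmp2.S, higher by 1.21 ± 0.37 (adjusted p = 0.046). The bambi.L call was lost without Pax3GR replicate 3, 4 or 5 or Combination replicate 1 or 5 (adjusted p up to 0.0871), and the bmp2.S call in 16 of the 20 fits that left out 1 array (adjusted p up to 0.129). The bmp4.S difference on Xl2.10632.1.A1_at was 0.09, with an interval from -0.39 to 0.56 (adjusted p = 0.866). Sizzled lay below log2 4 in both groups, so no fold was taken and a further fall could not have been seen.

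Pax3GR added to Zic1GR changed more. Against Zic1GR alone, 2 of the 9 rose and 5 fell in Combination caps, where 13.3% of all probe sets passed, 7.05% higher and 6.25% lower. szl.L was at least 148-fold lower (adjusted p = 1.34e-08) and szl.S at least 199-fold lower (adjusted p = 2.93e-11). The bmp4.S probe sets fell by 1.93 and 2.61 (adjusted p = 7.40e-06 and 4.20e-07), and bambi.L fell by 2.42 (adjusted p = 0.00287). bmp2.S rose by 2.60 ± 0.37 (adjusted p = 8.35e-05), and chrd.1.S rose by the 0.97 given above. bmp4.L (0.29, adjusted p = 0.553) and nog.L did not pass.

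The single factors were also compared directly. Against Zic1GR, 1 of the 9 was higher in Pax3GR caps and 5 were lower, where 34.3% of all probe sets passed, 17.3% higher and 17% lower. bmp2.S was higher by 1.38 (adjusted p = 0.00803), szl.L and szl.S were lower by the same bounds as above (adjusted p = 4.40e-09 and 2.11e-11), and bambi.L was lower by 4.24 (adjusted p = 4.51e-06). The bmp4.S probe sets were lower by 2.02 and 2.76 (adjusted p = 2.36e-06 and 1.16e-07), and bmp4.L differed by -0.37 (interval -0.94 to 0.20, adjusted p = 0.311). chrd.1.S and nog.L did not pass, as given above. Thus the difference between the single factors was tested directly for bmp4.S, bambi.L and bmp2.S, which passed against GR with Pax3GR and not with Zic1GR.

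Non-additivity was taken as the Combination's log2 difference from GR minus the sum of both single differences. It passed for 7 of the 9 probe sets, 5 above the sum and 2 below it, where 36.6% of all probe sets passed, 17% above and 19.6% below. For 4 of the 7, given last, the sum lay outside the scale of the arrays, so nothing is read from their passing; of the other 5 probe sets, 3 passed. bmp4.L was 1.87 above its sum (adjusted p = 0.00137), since the Combination mean was 9.64 and the single effects summed to a level of 7.77. bambi.L was 2.42 above its sum (10.23 against 7.82, adjusted p = 0.0139) and bmp2.S was 1.55 above its sum (7.66 against 6.11, adjusted p = 0.0293). The bmp2.S call was lost in 5 settings (adjusted p up to 0.0843), among them the fits without GR replicate 2 and without Combination replicate 3. The bmp4.S probe sets lay near their sums, at 10.87 against 10.59 and 9.72 against 9.30 (adjusted p = 0.511 and 0.347).

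For the genes that moved most, the sum lay outside the scale of the arrays. The single effects summed to levels of 19.95 for chrd.1.S and 16.92 for nog.L, above the highest value on any array, 15.39. Their non-additivity was -8.28 (adjusted p = 2.71e-10) and -6.97 (adjusted p = 1.95e-08). The sums for szl.L and szl.S were -0.80 and 0.31, below the lowest value on any array, 0.686, and the differences from the sum were 3.44 (adjusted p = 0.00571) and 2.58 (adjusted p = 0.00269). For these 4 probe sets additivity on this scale could not have been observed.

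The rest of the pathway was described through 5 lists that together held 114 probe sets of 79 genes, of which 84 were tested. Of these, 15 rose and 38 fell with Pax3GR, 19 rose and 30 fell with Zic1GR, and 15 rose and 41 fell with the Combination. The median log2 differences were -0.55, -0.42 and -0.81, against 0.10, 0.09 and 0.08 over all tested probe sets. Of all tested probe sets, 27.3%, 28.6% and 24.6% rose and 23%, 22.8% and 20.3% fell, which is the background for each list.

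**Figure D5:**
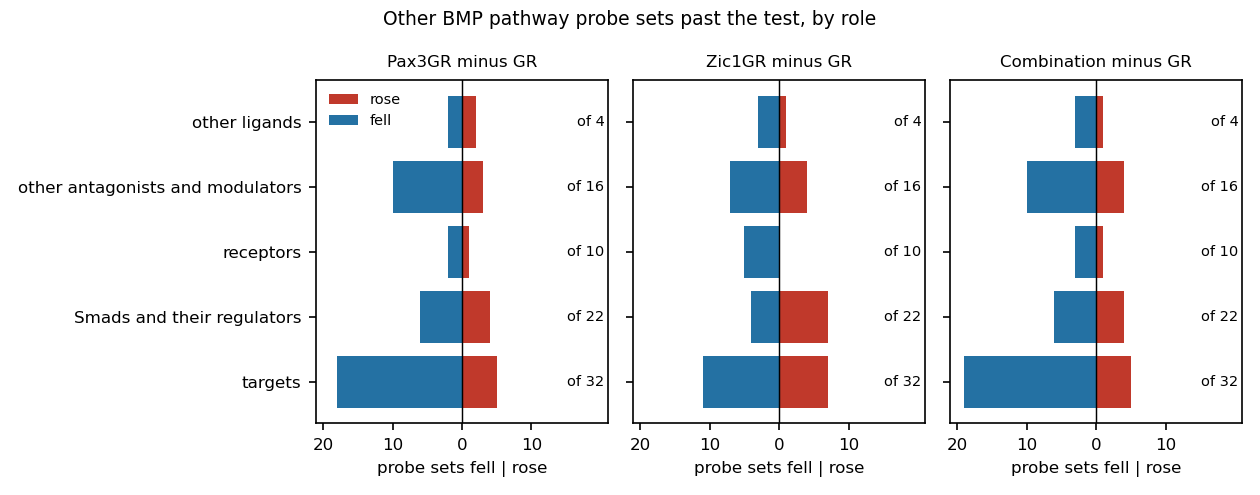
Number of tested probe sets of other BMP pathway genes that rose (right of 0) or fell (left of 0) against GR in Pax3GR, Zic1GR and Combination caps, by role, with the number tested at the right of each row. Targets had 18, 11 and 19 falls of 32 tested, and other antagonists and modulators had 10, 7 and 10 of 16. Of all tested probe sets 23%, 22.8% and 20.3% fell.

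Among the other ligands, 4 probe sets were tested. Both bmp7 genes, partners of bmp4 in ectoderm, fell: bmp7.1.L by 3.73, 1.99 and 3.05 and bmp7.2.L by 3.60, 0.94 and 3.42 with Pax3GR, Zic1GR and the Combination (largest adjusted p 0.0371, for bmp7.2.L with Zic1GR). On Xl2.54084.1.A1_at admp.S, a BMP ligand that the organiser makes in Xenopus, rose from a GR mean of 2.27, at least 26.8-fold, 11.1-fold and 3.99-fold in the same order (adjusted p = 4.09e-08, 9.56e-07 and 3.69e-05). The other admp.S probe set, Xl2.340.1.S1_at, did not pass the filter and averaged at most 2.17 in any group. bmp3.L, a ligand that opposes BMP signalling in Xenopus, rose by 1.85 with Pax3GR (adjusted p = 0.012). It was at least 1.87-fold lower with Zic1GR (adjusted p = 0.0109) and with the Combination (adjusted p = 0.0451).

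Among other antagonists and modulators, 3 of 16 rose and 10 fell with Pax3GR, 4 rose and 7 fell with Zic1GR, and 4 rose and 10 fell with the Combination. Over all tested probe sets 27.3%, 28.6% and 24.6% rose and 23%, 22.8% and 20.3% fell. rgma.L, the gene of a BMP co-receptor, rose by 4.05, 4.54 and 3.39 (largest adjusted p 3.06e-08). tll1.S, of the tolloid protease family that cuts chordin and that sizzled inhibits, fell by 2.63, 0.92 and 3.04 (largest adjusted p 0.0213). Its relative tll2.L rose by 3.74 with Pax3GR (adjusted p = 1.57e-08) and did not pass with Zic1GR or the Combination (-0.53 and 0.09). The tll2.L means in GR and Zic1GR caps, 3.96 and 3.43, lay below log2 4. htra1.S, the gene of a secreted protease, fell by 3.78 with Pax3GR, rose by 1.53 with Zic1GR and fell by 0.69 with both, and Pax3GR lay below Zic1GR by 5.31 (adjusted p = 1.01e-11). tsku.L, which encodes the secreted BMP modulator tsukushi, fell by 1.66 with Pax3GR and 1.03 with the Combination and differed by -0.04 with Zic1GR. fstl1.L, related to follistatin, rose by 4.24 with Zic1GR and 2.27 with both (0.65 with Pax3GR, adjusted p = 0.446), from a GR mean of 3.41. nbl1.L, an antagonist gene of the gremlin family, rose at least 1.65-fold, 3.44-fold and 1.89-fold.

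Further noggin genes were named after their values were seen and did not pass the filter. nog2.L averaged 4.45 in Pax3GR caps and 1.91 to 1.95 in the other groups. nog4.S averaged 5.49 in GR caps and 1.63 to 1.73 in the injected groups, so these noggin genes were not read as measured where nog.L was high, apart from nog2.L in Pax3GR caps.

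Of 10 receptor probe sets, 1 rose and 2 fell with Pax3GR, 5 fell with Zic1GR, and 1 rose and 3 fell with the Combination. With rises and falls counted jointly, no comparison exceeded the share of all tested probe sets that passed (50.3%, 51.4% and 44.8%). By direction, 5 of 10 fell with Zic1GR, where 22.8% of all tested probe sets fell. With Pax3GR 2 of 10 fell against 23%, and with the Combination 3 of 10 fell against 20.3%. Rises lay below their shares of 27.3%, 28.6% and 24.6%. The list holds only 10 probe sets, some of them for the same gene, so the counts are not read as a result about receptors. bmpr2.S, a type II receptor, fell at least 11.3-fold with Pax3GR (adjusted p = 1.41e-10), and by 3.68 and 3.52 on the log2 scale with Zic1GR and with both. Its means with Zic1GR and with both were 3.82 and 3.98, so these sizes rest on groups near log2 4. The type I receptor copies acvr1.L and acvr1.S fell by 1.38 and 1.56 with Zic1GR (adjusted p = 0.000328 and 0.00118). With Pax3GR acvr1.S fell by 0.95 and acvr1.L differed by -0.52 (adjusted p = 0.109). acvr2b.S rose by 0.66 with Pax3GR and 0.67 with the Combination (0.22 with Zic1GR, adjusted p = 0.0605).

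Of 22 probe sets for Smads and their regulators, 4 rose and 6 fell with Pax3GR, 7 rose and 4 fell with Zic1GR, and 4 rose and 6 fell with the Combination. These counts lie near the shares of all tested probe sets that passed (50.3%, 51.4% and 44.8%). They are not read as a result about this list. smad9.S, a BMP-activated Smad, fell at least 107-fold with Pax3GR, and by 3.83 and 6.59 with Zic1GR and with both (largest adjusted p 0.00125). The inhibitory smad7.L fell by 2.65, 0.87 and 2.09 on Xl2.1228.1.S2_at (largest adjusted p 0.00441). Its other probe set, Xl2.1228.1.S1_a_at, was further apart, with means of 9.21, 3.79, 7.89 and 4.96 in GR, Pax3GR, Zic1GR and Combination caps. znf423.L, a Smad partner, rose by 2.14 with Zic1GR and 1.66 with both and differed by -0.07 with Pax3GR (adjusted p = 0.861). ctdspl2.S rose by 0.57, 0.74 and 0.64, and lemd3.S, a nuclear envelope protein gene that binds Smads, did not pass in any of these 3 comparisons (differences up to 0.10).

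Of 32 target probe sets, 18 fell with Pax3GR, 11 with Zic1GR and 19 with the Combination, and 5, 7 and 5 rose. Over all tested probe sets 23%, 22.8% and 20.3% fell and 27.3%, 28.6% and 24.6% rose. ventx1.2.S, a ventral homeobox gene, fell at least 160-fold with Pax3GR and by 3.38 and 6.70 with Zic1GR and with both (largest adjusted p 0.0062). gata3.S, an epidermal regulator, fell by 5.09 and 5.35 with Pax3GR and the Combination, and the Zic1GR difference was -1.24 (adjusted p = 0.14). On Xl2.34499.1.S1_s_at tp63.S, another epidermal regulator, fell at least 39.3-fold with Pax3GR (adjusted p = 2.77e-07). It fell by 5.45 with Zic1GR (adjusted p = 1.58e-06), to a mean of 3.85, just below log2 4. With both it fell by 1.85, with groups that overlapped (adjusted p = 0.0191). The other tp63.S probe set, Xl2.34499.1.S1_at, averaged 7.33, 1.91, 1.98 and 3.85 in GR, Pax3GR, Zic1GR and Combination caps, and tp63.L 6.16, 2.28, 2.30 and 6.13. id2.L fell by 1.77, 0.57 and 1.36 with Pax3GR, Zic1GR and the Combination. On Xl2.14513.1.S1_s_at dlx3.L fell by 2.12 and 1.35 with Pax3GR and the Combination. Its other probe sets were further apart. Xl2.52202.1.S1_s_at averaged 9.99, 4.24, 8.35 and 6.15 in GR, Pax3GR, Zic1GR and Combination caps, and Xl2.52202.2.A1_at averaged 11.85, 8.03, 10.50 and 9.29.

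Some targets did not follow. msx1.L, a border homeobox gene, rose by 0.96 with Pax3GR and 1.13 with both and fell by 0.87 with Zic1GR, and the single factors differed by 1.83 (adjusted p = 3.08e-08). msx2.L fell by 2.01 with Zic1GR and differed by -0.13 with Pax3GR and 0.81 with both (adjusted p = 0.773 and 0.0563), and the Combination exceeded Zic1GR by 2.82 (adjusted p = 8.04e-06). ventx2.1.L rose by 1.97 and id3.L by 0.35 with Zic1GR (adjusted p = 9.04e-05 and 0.00097), while the Pax3GR differences were 0.46 and 0.15 (adjusted p = 0.25 and 0.0949). The other copy, ventx2.1.S on Xl2.366.1.S1_at, was lower with Pax3GR and the Combination. It averaged 12.95, 10.21, 12.74 and 10.45 in GR, Pax3GR, Zic1GR and Combination caps. Probe sets annotated to ventx1.1.L, a relative of ventx1.2.S, went in opposite directions. In the same order Xl2.1420.1.A1_at averaged 2.54, 9.58, 8.58 and 9.43, and Xl2.203.1.S1_at averaged 7.11, 2.75, 5.84 and 4.86. The reason was not tested.

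Likeness of pattern was measured as the root mean square difference between log2 profiles over the 20 arrays, each centred on its own mean, among 10987 tested probe sets with exactly 1 symbol. For chrd.1.S the nearest were pax3.L on Xl2.45266.1.S2_at (0.656), zic2.L (0.736) and lmx1b.1.S (0.759). For nog.L the nearest were prickle1.S (0.469), nrp1.L (0.585) and ackr3.L (0.663). For bmp4.S on Xl2.10632.1.A1_at they were gng5.S (0.473), ephb3.L (0.491) and stx6.L (0.496). The copies szl.L and szl.S were nearest each other (0.508), followed for both by tbx3.S (1.22 and 1.1) and nkx2-3.L (1.84 and 1.56).

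Markers of tissues that a cap might hold are given beside the rise of chordin, noggin and admp, which the organiser makes in the embryo. Of 22 organiser and axial mesoderm genes measured, 2 had a mean of at least log2 4 in GR caps, 5 with Pax3GR, 7 with Zic1GR and 5 with both. The mean of that list ranged over arrays from 2.48 to 2.73 in GR, 3.35 to 3.90 in Pax3GR, 3.74 to 4.32 in Zic1GR and 2.93 to 3.86 in Combination caps, and it shares admp and cer1 with the pathway lists. The organiser gene gsc.S averaged 10.07 and gsc.L 6.69 in Zic1GR caps, and 1.80 and 1.72 in GR caps. In Combination caps they averaged 4.75 and 1.73, and in Pax3GR caps both averaged below log2 4. On Xl2.368.1.S1_at cer1.S averaged 7.71 in Combination caps, 4.27 in Pax3GR caps (SD 2.83) and 2.22 in GR and Zic1GR caps. frzb.L averaged 8.82 in Pax3GR caps and below log2 4 in the other groups. The 2 genes that reached log2 4 in GR caps were dkk1.S and an entry annotated frzb without a copy ending. That frzb entry averaged 7.96 in Zic1GR caps and between 4.03 and 4.35 in the other groups. On Xl2.251.1.S1_at dkk1.S averaged 6.67, 3.15, 8.38 and 6.85 in GR, Pax3GR, Zic1GR and Combination caps. shh.L, tbxt.L, foxa4.L, foxa4.S, sia1.L, sia2.S, lhx1.L, nodal3.1.L and nodal3.2.L averaged below log2 4 in every group. not.L, a notochord gene, averaged 7.95 in Pax3GR, 7.16 in Zic1GR and 3.44 in Combination caps. Its other copy not.S, on Xl2Affx.5.1.S1_at, averaged 5.72 in Zic1GR caps and below log2 4 in the other groups. tbxt.S, the pan-mesodermal brachyury gene, did not exceed 5.42 on any array.

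Most other mesoderm and endoderm markers lay below log2 4. Of 20 paraxial and lateral mesoderm genes, 1, 3, 3 and 1 had a mean of at least log2 4 in GR, Pax3GR, Zic1GR and Combination caps, with array means of 2.09 to 2.34, 2.75 to 2.95, 2.45 to 2.82 and 2.18 to 2.77. The highest in that list was the muscle regulator myf5.L, with means of 1.94, 10.58, 1.92 and 6.14. Its SD in Combination caps was 3.83. On Xl2.3161.1.S2_at the muscle myosin gene myh6.S averaged 2.04, 6.91, 2.02 and 2.65. myod1.S averaged 2.57, 4.54, 5.08 and 3.99, and the muscle actin actc1.L reached 4.40 at most. Of 20 endoderm genes the numbers were 7, 4, 4 and 5, with array means highest in GR (4.19 to 4.72) and 3.2 to 3.75 in the others, and sox17a.S and sox17a.L averaged under 1.90 in every group. On Xl2.40286.1.A1_at foxa2.L averaged 2.26, 2.40, 3.31 and 8.15. a2m.S averaged 10.74, 8.39, 12.72 and 10.79, and gata6.L averaged 9.85, 8.56, 10.52 and 10.28. Other endoderm genes were highest in GR caps. On Xl2.225.1.S2_at hhex.L averaged 8.93, 3.06, 3.56 and 2.54, and gata5.S averaged 7.33, 2.28, 4.62 and 2.51. On Xl2.23009.1.S1_at gata6.S averaged 10.18, 9.61, 6.34 and 6.77. On Xl2.52787.2.A1_at foxa1.L averaged 6.87, 2.62, 2.12 and 2.12, while foxa1.S averaged 7.15, 8.15, 3.14 and 4.09. The part of these cells in the BMP values was not tested.

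Ectodermal markers moved as well. The epidermis list averaged 11.42 to 11.85 over GR arrays, 8.69 to 11.11 with Pax3GR, 10.15 to 10.89 with Zic1GR and 10.33 to 11.50 with both. Its genes did not all move alike. The keratin gene krt12.4.L averaged 15.05, 13.44, 14.36 and 14.44, and epcam.S 14.23, 14.43, 14.35 and 14.51. On Xl2.12584.1.S1_at xepsin.S averaged 2.30, 10.1, 2.29 and 6.76, while xepsin.L averaged 12.77, 5.83, 12.03 and 9.93. The arrays of 2 of these groups were far apart. For xepsin.S and xepsin.L the SD was 4.40 and 5.06 in Pax3GR caps and 4.09 and 3.02 in Combination caps. The neural plate list averaged 6.55 to 6.72, 9.02 to 9.90, 9.32 to 10.39 and 7.52 to 8.72, and the neural crest list 4.32 to 5.07, 7.2 to 7.98, 5.89 to 7.38 and 8.62 to 10.20, in the same order. The hatching gland list averaged 6.23 to 6.36, 12.15 to 12.71, 7.50 to 8.64 and 11.88 to 12.27. Of its 6 genes, 2 are pax3.L and pax3.S, copies of a factor that was injected. The probe sets annotated to pax3.L did not all move alike. On Xl2.45055.1.S1_at, its probe set with the highest means, pax3.L averaged between 13.61 and 14.14 in every group. On Xl2.45266.1.S2_at it averaged 2.22, 12.93, 11.50 and 12.93 in GR, Pax3GR, Zic1GR and Combination caps. On Xl2.49495.3.S1_x_at pax3.S averaged 2.36 in GR caps and 13.27 in Pax3GR caps. These values therefore do not show a difference between the copies. In the same list xa-1.L averaged 1.99, 14.34, 4.51 and 13.71, and npc2.S lay between 11.40 and 11.48. Their part in the BMP values was not tested either.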

How the data were processed

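RNA of 20 animal caps, 5 per injection, was hybridised to Affymetrix Xenopus laevis Genome 2.0 arrays; 100 ng per explant was amplified and biotin-labelled, per the labels' protocols. The deposited values are log2 intensities per probe set, and the authors' software is named as GCRMA and Partek in the submitters' processing notes, with versions and order not given in the sources used here. Of 32635 probe sets, 96 controls were left out; the array annotation gave 1 symbol to 15495, several to 279 and none to 16765, and 15384 symbols were matched by gene identifier to RefSeq.

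From there, group means were fitted in limma 3.58.1 (R 4.3.3, eBayes), tested on simulated data first, with 7 comparisons and Benjamini-Hochberg adjustment over 20519 probe sets. The members, gene lists and tests were chosen with earlier results of these data known. Named pathway genes were, per list and comparison with GR, up to 3 called genes with the smallest adjusted p and the uncalled gene with the highest mean. The labels do not say whether replicate numbers mark a shared clutch, and same-numbered arrays correlated in some pairs and not in others. The main fit has no replicate block and so takes no account of a clutch that arrays may share. Results with a block are given in the last section. Precision is limited by having 5 arrays per group. Sequences were not used here.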

Additional observations from a re-analysis of the deposited data

Results flagged for a closer look

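In the Combination group, replicate 5 stood apart for chrd.1.S (Xl2.3549.1.S1_a_at): it read 10.98, while the other 4 arrays read 11.69 to 11.98, a gap of 0.712 of the group's range against a limit of 0.71. It was the only one of 30 sets of 5 arrays examined that passed this limit, and chance passes about 1 in 20. It lay far above the GR arrays, and the cause was not tested.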

How the results depend on the processing

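Results were recomputed under 35 other settings: 13 planned ones that kept all arrays, 20 that left out 1 array each, and 2 added after the data were seen. Of 45 called BMP differences, 38 kept their call under every setting that tested them, and 21 of the 23 against GR, the exceptions being bmp2.S with Pax3GR and bmp4.L with the Combination. In the main fit 9 BMP and 84 other pathway probe sets were tested. That fit called 51.4% of all probe sets with Zic1GR and 10.3% for the Combination against Pax3GR. The shares of all probe sets called under the other settings are not given here, so the changed counts below are not read as particular to BMP genes. The 5 BMP calls with Zic1GR became 8 without a filter on low values and 3 without probe sets ending in _x_at, _s_at or _a_at. The 2 calls of the Combination against Pax3GR became 1 without the filter, with trend and robust variances, with array weights, with the replicate block, and without the array of each group least like its group. They became 0 with only the 2 groups fitted and at a threshold of 0.01, and ranged from 0 to 2 when 1 array was left out. For the other pathway genes that comparison's 14 calls became 33 with array weights, 7 with only its groups, 9 at a threshold of 0.01, 29 without the least-like arrays, and 11 to 23 when 1 array was left out (23 without Pax3GR replicate 1, 22 without Combination replicate 4). Its uncalled differences changed sign to -0.0919 and -0.0233 (bmp4.S) and -0.0814 (chrd.1.S) with array weights, and to -0.15 and -0.11 (bmp4.S) and -0.0323 (chrd.1.S) without the least-like arrays. Without 1 array the bmp4.S values ran from -0.0541 to 0.246 on Xl2.10632.1.A1_at and from -0.000243 to 0.29 on Xl2.1141.1.S1_x_at. The cause was not tested. The replicate block moved no other BMP count by over 1.5 times (9, 5, 9, 6, 6 and 7 calls in the remaining comparisons); same-numbered arrays correlated at -0.382 to 0.466 over 30 pairs, 8 of them over 0.1 (3 of the 5 between Pax3GR and Combination, at 0.35, 0.326 and 0.466), and 8 of 20 arrays correlated best with their own number. Signal near log2 4 limits bmp2.L, grem1.L and fst.L, which have no test, and the folds of chrd.1.S, nog.L and szl, which are bounds.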
